A study of Mus musculus with 9 samples.

Results

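The 3 liver tumors of the group S7HP, numbered 9, 11 and 12, were compared with the other 6 tumors of the series. They are all the tumors with that label and make up 3 of 9. The other 6 were the LHP tumors 2, 3 and 6 and the S7HP+Snail tumors 13, 14 and 15. Every tumor came from the liver of a C57BL/6 mouse aged 11 weeks. By the names of the value columns, S7HP tumors carry a Smad7 construct, S7HP+Snail tumors the same together with Snail, and LHP tumors a Luc construct in place of Smad7. The labels spell out neither what the letters H and P stand for nor how the constructs were delivered or driven, and they do not say whether the tumors of a group came from separate animals. The p-values below therefore measure the spread between these samples, which may be partly technical. The question was which genes are set apart in tumors with the Smad7 construct and no added Snail. LHP carries no Snail construct by its labels, and it was placed beside S7HP+Snail with earlier results of these data known, the high Snai1 level of LHP among them.

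TGF-β ligands bind serine/threonine kinase receptors that activate Smad transcription factors, and Smad7 is the inhibitory Smad that turns this signal off at the receptor. Snail, encoded by Snai1, is a zinc finger protein that can be induced by TGF-β and that represses genes of epithelial cells by binding E-box motifs in their promoters. Its action is best known from the epithelial to mesenchymal transition, in which cells lose tight junctions, adherens junctions and apical polarity and gain matrix and motility genes.

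Expression was measured with QuantSeq, which reads near the 3′ end of polyadenylated transcripts, and all values below are log2 of a normalized read count plus 1. The 9 libraries were normalized by the authors to nearly the same total, between 19910396 and 19911234 normalized counts, and hold 24421 gene symbols. Genes at 4 or more in at least 3 of the 9 libraries were kept, 14215 in all. Relative depth, read from the steps between the lowest values, ran from 0.75 to 0.956 in LHP, from 0.551 to 0.991 in S7HP and from 0.806 to 1.895 in S7HP+Snail. A total of 3 reads came to between 1.22 and 2.64 on this scale, so lower values rest on fewer than 3 reads. Correlations across the kept genes (genes are not independent replicates) ranged from 0.923 to 0.936 among the S7HP libraries and 0.864 to 0.9 among the S7HP+Snail libraries, which were the least alike. The liver protein gene Alb lay between 12.98 and 17.32 in the 9 libraries.

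Snai1 (GRCm38 chromosome 2, 167538195 to 167542814, plus strand) was at 9.93, 11.16 and 10.99 in the LHP tumors, at 6.17, 6.34 and 6.92 in the S7HP tumors and at 8.53, 7.31 and 8.47 in the S7HP+Snail tumors. The S7HP tumors were the 3 lowest, and LHP, not S7HP+Snail, was the highest group. The difference of S7HP from the mean of the other 2 groups was -2.92 ± 0.37 (SE), given as a description with no test, since the grouping was made with these levels known. Smad7 itself (chromosome 18, 75367529 to 75395935, plus strand) was at 10.23, 10.50 and 9.49 in LHP, at 6.46, 6.81 and 6.28 in S7HP and at 7.31, 6.77 and 8.0 in S7HP+Snail. It was lowest in the tumors that carry its construct without Snail, with S7HP tumor 11 just above S7HP+Snail tumor 14. Its difference was -2.20 ± 0.33 (limma, Benjamini-Hochberg adjusted p = 0.00475), with an exact two-sided permutation p of 0.0476 over the 84 splits of 3 against 6 tumors. Whether the constructs carry the 3′ ends that QuantSeq reads is unknown from the labels, and neither gene can be used to check a tumor's group. The call of Smad7 was lost when the other 6 tumors were fitted as 1 group, at a limma adjusted p of 0.154 (Benjamini-Hochberg).

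A gene was called when the contrast of the S7HP mean with the average of the LHP and S7HP+Snail means passed a Benjamini-Hochberg adjusted p of 0.05 in limma. Of 14215 genes, 761 were called higher (5.35%) and 731 lower (5.14%). These are the shares to set beside each count of called list members below. Such a contrast can pass through 1 of the 2 groups alone, so the term set apart is used here only for called genes that met 2 more conditions. All 3 S7HP libraries had to lie beyond all 6 others, and the S7HP mean had to lie at least 1 log2 unit beyond the nearer group mean. Regardless of the test, all 3 S7HP libraries lay above the other 6 for 6.38% of genes and below them for 5.66%. The rule left 395 genes set apart higher (2.78% of the genes tested) and 330 set apart lower (2.32%). They were 51.9% of the genes called higher and 45.1% of those called lower. Of the 395, 36 reached the filter value of 4 only in S7HP, and 56 of the 330 reached it only in the other 6 tumors. Such genes entered the test only through the side where they are high, so those named below are given by their values with no test. Cldn18, Ido1, Igsf1 and Sst reached 4 in fewer than 3 of the other 6 tumors, so they too passed the filter only through S7HP. Map6, Tpbg, Fzd2, Zfp503, Col7a1, Igf1r and Twist1 reached 4 in fewer than 3 S7HP tumors and passed only with the other 6. The limma values printed below for these genes are a description and no support. The last condition is a rule of size with no test of its own. A set-apart gene therefore need not pass a test against each group. In limma, S7HP against S7HP+Snail alone gave Benjamini-Hochberg adjusted p of 0.13 for Cdh1, 0.103 for Hnf4a, 0.204 for Tff3 and 0.318 for Tspan8. All 4 are set apart. For others it passed, as for Ocln (0.0204) and Gja1 (0.00277) by the same test. It ran between Plin3, inside at 1.0023, and Exosc7, outside at 0.9955, on the higher side, and between Pcdhga8 (1.0005) and Pcdhgb5 (0.9997) on the lower side.

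By the rule the set-apart genes lie at least 1 log2 unit from both group means. Their median difference from LHP was 2.47 for those higher and -2.44 for those lower, and from S7HP+Snail it was 1.86 and -1.98, as a description. Both differences use the same S7HP libraries and are not independent. The S7HP+Snail mean lay between the S7HP and LHP means for 283 of the 395 genes set apart higher and beyond LHP for 112, and the corresponding numbers among the 330 set apart lower were 234 and 96. A gap of at least 3 log2 units to the nearer group mean was found for 66 higher and 57 lower genes. Among the called genes that were not set apart, 197 higher and 227 lower genes had S7HP libraries clear of LHP but overlapping S7HP+Snail, and 18 and 11 were clear of S7HP+Snail but overlapped LHP. A single library made the overlap for 161 higher and 166 lower genes. That library was S7HP+Snail tumor 13 for 64 and 39 genes, tumor 14 for 48 and 45, and tumor 15 for 38 and 77. The S7HP+Snail group thus overlapped S7HP through different tumors for different genes. Among the genes called through LHP alone, the imprinted RNA H19 was at 9.52, 10.22 and 8.26 in LHP, at 16.62, 14.51 and 15.03 in S7HP and at 16.30, 16.75 and 15.99 in S7HP+Snail. The Notch ligand gene Jag1 was at 13.60, 13.93 and 14.02 in LHP, at 9.99, 8.89 and 9.22 in S7HP and at 8.93, 9.10 and 9.58 in S7HP+Snail. For these genes S7HP and S7HP+Snail stood together, away from LHP. Neither was called with the other 6 tumors as 1 group (limma, Benjamini-Hochberg adjusted p = 0.477 for H19 and 0.35 for Jag1), and H19 was not called without S7HP tumor 9.

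**Figure D1:**
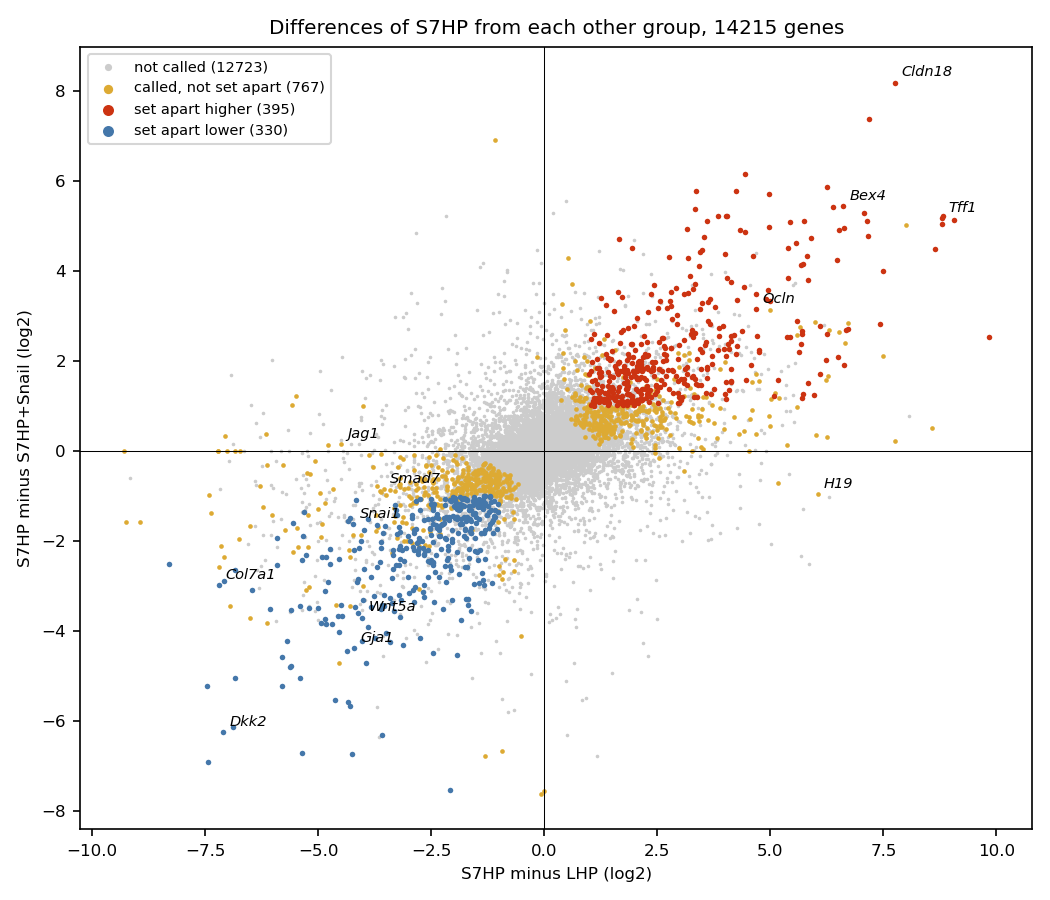
Difference of the S7HP mean from the LHP mean (x axis, log2) against its difference from the S7HP+Snail mean (y axis, log2) for the 14215 kept genes, 1 point per gene; both axes share the S7HP libraries. The 395 genes set apart higher lie in the upper right and the 330 set apart lower in the lower left, while H19 and Jag1 lie far from 0 on the x axis and near 0 on the y axis.

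Of 30 kept genes of epithelial junctions and polarity, 13 were called higher in S7HP and 0 lower, and 10 of the 13 were set apart. The median difference over the 30 genes was 1.62, against 0.02 over all kept genes. Occludin, Ocln, a membrane protein of tight junctions, was at 3.56, 3.44 and 2.15 in LHP, at 8.02, 7.31 and 7.90 in S7HP and at 5.09, 4.16 and 4.49 in S7HP+Snail. The lowest S7HP tumor was well above the highest other tumor, and the difference was 3.93 ± 0.46 (SE) (limma, Benjamini-Hochberg adjusted p = 0.00201). Crb3, a small apical protein that sets up epithelial polarity, was at 3.97, 4.60 and 4.60 in LHP, at 7.90, 7.72 and 8.41 in S7HP and at 5.97, 3.97 and 4.11 in S7HP+Snail, a difference of 3.47 ± 0.49 (limma, Benjamini-Hochberg adjusted p = 0.00377). Lsr, which recruits tricellulin to the corners between cells, was at 11.44, 11.21 and 11.47 in LHP, at 13.62, 13.57 and 14.02 in S7HP and at 12.66, 12.28 and 12.66 in S7HP+Snail. For Lsr the 3 groups formed separate steps, with a difference of 1.78 ± 0.19 (limma, Benjamini-Hochberg adjusted p = 0.00131).

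Plakophilin 2, Pkp2, a desmosomal plaque protein, had another order of groups. It was at 8.19, 7.79 and 7.76 in LHP, at 9.43, 9.16 and 8.93 in S7HP and at 6.25, 5.47 and 5.55 in S7HP+Snail. The S7HP tumors were highest and the S7HP+Snail tumors lowest, and the difference was 2.34 ± 0.26 (limma, Benjamini-Hochberg adjusted p = 0.00179). E-cadherin, Cdh1, the adhesion molecule of adherens junctions, met the conditions narrowly. It was at 11.96, 11.08 and 11.11 in LHP, at 14.26, 14.18 and 14.95 in S7HP and at 14.17, 10.54 and 11.28 in S7HP+Snail, so that S7HP+Snail tumor 13 came within 0.02 of the lowest S7HP tumor. Its difference of 2.78 ± 0.67 (limma, Benjamini-Hochberg adjusted p = 0.0294) was lost when LHP tumor 3, LHP tumor 6 or any 1 S7HP tumor was left out, and also with the other 6 fitted as 1 group, at adjusted p up to 0.0993 (limma, Benjamini-Hochberg). The 1-group fit also ended the call of Pkp2 (limma, Benjamini-Hochberg adjusted p = 0.0767).

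The other set-apart members of the list, named after their values were seen, were cingulin, Cgn (3.39 ± 0.51, SE), a tight junction plaque protein, the polarity genes Pard6b (3.53 ± 0.73) and Llgl2 (2.18 ± 0.33), claudin 2, Cldn2 (2.91 ± 0.61), which forms paracellular cation pores, and tricellulin, Marveld2 (2.57 ± 0.56). Cgn was at 6.75, 6.44 and 6.80 in LHP, at 9.95, 9.95 and 10.54 in S7HP and at 8.49, 6.15 and 5.91 in S7HP+Snail, with tumor 13 the nearest of the other 6. Called without being set apart were Gjb1, the main gap junction connexin of hepatocytes (1.65 ± 0.30), F11r (1.73 ± 0.39) and Dsg2 (1.58 ± 0.38). These 3 calls were lost with the other 6 as 1 group, at limma adjusted p up to 0.142 (Benjamini-Hochberg), and those of F11r and Dsg2 also when 1 of the tumors 3, 6, 9 and 12 was left out, or for Dsg2 tumor 2 or 11. Claudin 7, Cldn7, was not called, at 3.81 ± 1.58 (limma, Benjamini-Hochberg adjusted p = 0.147). Its values were 10.16, 10.29 and 11.42 in S7HP, against 11.69, 2.26 and 6.11 in S7HP+Snail, the first of these in tumor 13. Leaving out single S7HP tumors ended the calls of Pard6b (tumor 9 or 12), Marveld2 (9 or 11) and Cldn2 (9, 11 or 12), at limma adjusted p up to 0.071, 0.0874 and 0.0783 (Benjamini-Hochberg). The count of 13 was 7 without S7HP tumor 9, its lowest, and 18 at its highest when 1 tumor was left out, and it was 8 with the other 6 tumors as 1 group.

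**Figure D2:**
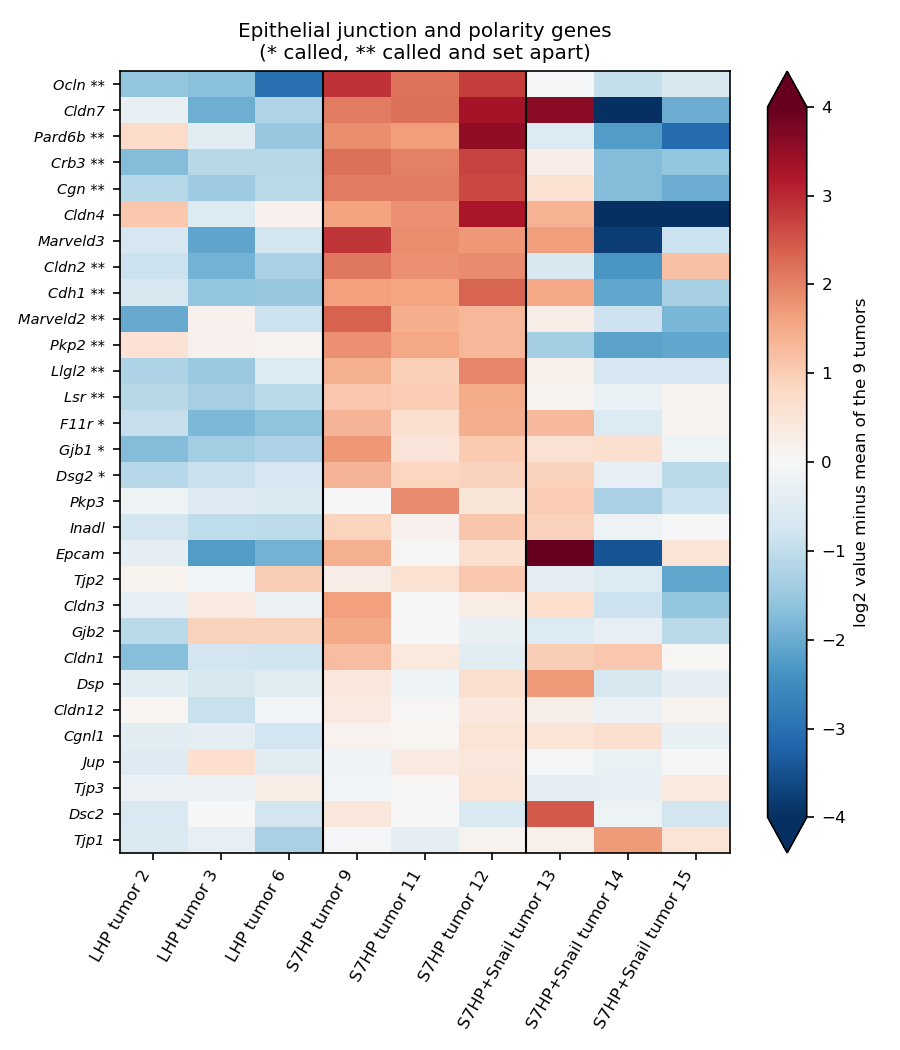
Heat map of the 30 kept epithelial junction and polarity genes (rows) in the 9 tumors (columns), coloured by the log2 value minus the mean of the 9 tumors; 1 star marks called genes and 2 stars set-apart genes. The 3 S7HP columns are the highest for the 10 genes with 2 stars, and S7HP+Snail tumor 13 is just below the S7HP tumors for Cdh1 and above them for Cldn7.

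Promoters of some of these genes are shown because Snail is known to bind the E-box CAGGTG. Of the 10 set-apart junction genes, Cdh1, Pkp2 and Llgl2 were not searched. The 250 bases before each RefSeq start (GRCm38.p6) were searched for CAGGTG and for its reverse complement CACCTG, which covers both strands. Of 21761 windows in the RefSeq table, 3705 (17%) held a match. The windows of Cgn, Cldn2 and Marveld2 held 0 matches. Lsr held 4 matches, Pard6b 2 and Crb3 3 in its window, of which 2 are in the stretch shown, which ends at the start of an annotated exon. Hnf4a, a liver transcription factor on the list of genes known to be repressed by Snail, held 1 match before its downstream start and 0 before its upstream start. Ocln held 2 matches before one start, in a window that overlaps an exon and is not printed, and 0 before its other start. In the sequences, written 5′ to 3′ on the gene's strand, capitals mark the matches. Lsr lies at chr7:30973470-30973719 (minus strand), Pard6b at chr2:168080754-168081003 (plus), Crb3 at chr17:57061951-57062143 (plus) and Hnf4a at chr2:163546943-163547154 (plus).
Lsr: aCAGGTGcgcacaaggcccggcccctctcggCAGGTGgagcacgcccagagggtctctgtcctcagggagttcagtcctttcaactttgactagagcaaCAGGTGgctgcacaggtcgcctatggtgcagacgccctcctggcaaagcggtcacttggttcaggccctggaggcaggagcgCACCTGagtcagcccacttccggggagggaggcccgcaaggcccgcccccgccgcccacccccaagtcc
Pard6b: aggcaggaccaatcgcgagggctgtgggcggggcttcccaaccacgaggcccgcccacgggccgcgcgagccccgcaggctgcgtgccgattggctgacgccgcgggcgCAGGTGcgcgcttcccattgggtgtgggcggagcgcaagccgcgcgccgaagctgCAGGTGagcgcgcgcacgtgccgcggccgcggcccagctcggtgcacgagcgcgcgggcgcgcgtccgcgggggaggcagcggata
Crb3: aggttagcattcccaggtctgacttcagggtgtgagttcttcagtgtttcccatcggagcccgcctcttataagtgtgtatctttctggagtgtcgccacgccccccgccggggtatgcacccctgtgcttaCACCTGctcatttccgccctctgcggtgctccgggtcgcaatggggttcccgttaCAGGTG
Hnf4a: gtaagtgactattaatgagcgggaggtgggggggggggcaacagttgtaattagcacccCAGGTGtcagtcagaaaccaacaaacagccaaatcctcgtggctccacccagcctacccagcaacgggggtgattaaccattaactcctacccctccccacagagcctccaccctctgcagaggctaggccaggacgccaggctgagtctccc
A match describes letters in a window and is not a binding site. Only 72.2% of the genes set apart higher and 71.8% of those set apart lower had a window, too few to represent the sets, so a comparison of the shares is void and none is given.

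Of 13 kept regulators of epithelial transcription and splicing, 3 were called higher and 0 lower, and the median difference was 1.18. Foxa3 (1.80 ± 0.25, SE), a liver pioneer factor, was among the 2 set apart, while Foxa2 (1.95) was called with S7HP libraries that overlapped those of S7HP+Snail. The call of Foxa2 was lost without S7HP tumor 11 or 12 and in the fit with the other 6 as 1 group, at up to 0.199 (limma, Benjamini-Hochberg adjusted p), and the list count was 2 without S7HP tumor 11. Of 15 kept genes on a list of reported Snail targets, 4 were called higher, 0 lower, and all 4 were set apart. They were Ocln, Crb3 and Cdh1, which the junction list also holds, and Hnf4a. Hnf4a was at 6.73, 7.47 and 6.34 in LHP, at 10.19, 9.91 and 9.61 in S7HP and at 9.17, 8.47 and 8.45 in S7HP+Snail, a difference of 2.13 ± 0.30 (limma, Benjamini-Hochberg adjusted p = 0.00365). All 3 S7HP tumors were above the others for Hnf4a, and the call was lost with the other 6 as 1 group (limma, Benjamini-Hochberg adjusted p = 0.0762). Without LHP tumor 3 the count of reported Snail targets was 3, and it was 2 in the 1-group fit.

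Of 22 kept members of the list of mucosal and squamous genes, 7 were called higher, 0 lower and 6 were set apart, with a median difference of 1.77. This list includes genes picked from earlier results on these libraries and is no independent support. Without S7HP tumor 9 the count was 4. Tff1, Tff3, Sprr1a, Cldn18 and Clic6, described next, belong to it. Trefoil factor 1, Tff1, a peptide secreted with mucus (chromosome 17, 31161395 to 31165277, minus strand), was at 5.68, 4.09 and 5.74 in LHP, at 14.53, 13.01 and 14.36 in S7HP and at 11.40, 6.26 and 8.70 in S7HP+Snail. The 3 S7HP tumors were above all others, and S7HP+Snail spread over a wide range below them. The difference was 6.99 ± 0.94 (SE) (limma, Benjamini-Hochberg adjusted p = 0.00323) and was called under each of 16 alternatives. Trefoil factor 3, Tff3, was at 3.56, 0 and 0 in LHP, at 11.97, 9.72 and 11.34 in S7HP and at 9.30, 7.84 and 8.29 in S7HP+Snail (6.18 ± 0.83; limma, Benjamini-Hochberg adjusted p = 0.00323), and its call was lost in the 1-group fit at 0.138. Sprr1a, a cornified envelope protein of squamous epithelium, was at 10.89, 9.62 and 8.01 in LHP, at 13.18, 14.95 and 14.26 in S7HP and at 10.35, 8.72 and 10.30 in S7HP+Snail, so that LHP and S7HP+Snail covered overlapping ranges and S7HP was above both (4.48 ± 0.64; limma, Benjamini-Hochberg adjusted p = 0.00416).

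Claudin 18, Cldn18, a tight junction protein of stomach and lung, had the widest gap, 7.76, and values that spread widely within each group. It was at 5.56, 0 and 2.15 in LHP, at 11.15, 7.05 and 12.80 in S7HP and at 1.15, 0 and 5.27 in S7HP+Snail. Its difference of 7.98 ± 1.63 (limma, Benjamini-Hochberg adjusted p = 0.0164) was lost without S7HP tumor 9 or 12, at adjusted p up to 0.0766 (limma, Benjamini-Hochberg). Vsig1, which is on no list, an immunoglobulin-type adhesion protein of gastric epithelium, was at 4.85, 0 and 0 in LHP, at 8.93, 11.19 and 11.19 in S7HP and at 6.36, 1.53 and 7.77 in S7HP+Snail. Its call (7.02 ± 1.48; limma, Benjamini-Hochberg adjusted p = 0.0185) was lost without any 1 S7HP tumor and in the 1-group fit, at up to 0.0792. The chloride channel family gene Clic6 was at 5.79, 4.35 and 5.25 in LHP, at 10.38, 11.44 and 11.31 in S7HP and at 7.86, 6.17 and 4.86 in S7HP+Snail, with S7HP clear of the rest (5.33 ± 0.60; limma, Benjamini-Hochberg adjusted p = 0.00193).

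Bex4 (X chromosome, 136138996 to 136140443, plus strand) and Bex1 (136213972 to 136215513, minus strand), which encode small brain-expressed X-linked proteins, were both set apart higher. Bex4 was at 5.07, 3.60 and 3.78 in LHP, at 10.22, 11.49 and 10.59 in S7HP and at 5.40, 6.52 and 4.02 in S7HP+Snail (6.03 ± 0.57, SE; limma, Benjamini-Hochberg adjusted p = 0.00102). Bex1 was at 5.34, 1.83 and 1.74 in LHP, at 11.90, 13.05 and 11.17 in S7HP and at 6.46, 8.95 and 5.31 in S7HP+Snail (7.10 ± 0.97; limma, Benjamini-Hochberg adjusted p = 0.00347). In both, S7HP+Snail tumor 14 was the nearest of the other 6 to S7HP. Peptide YY, Pyy, a hormone of intestinal endocrine cells, was at 0, 1.22 and 0.29 in LHP, at 7.45, 7.97 and 7.30 in S7HP and at 1.83, 1.53 and 3.50 in S7HP+Snail. The S7HP values lay close together and most others were near or below the value of 3 reads. Pyy reached the filter value of 4 only in S7HP, and its difference of 6.18 ± 0.67 is a description. Tmed6, a cargo receptor of the secretory pathway, was at 0, 0 and 1.22 in LHP, at 7.46, 8.0 and 7.34 in S7HP and at 0.42, 0.29 and 0 in S7HP+Snail. It too reached 4 only in S7HP. For Tmed6 the other 6 tumors were at or below the value of 3 reads, so the fitted difference of 7.28 ± 0.69 depends on the pseudocount and does not measure the fold.

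The remaining named genes on the higher side were Ido1, Cidea, Igsf1 and Ppp2r2c. Igsf1, a membrane glycoprotein, was at 2.64, 2.87 and 0.29 in LHP, at 10.80, 7.39 and 9.09 in S7HP and at 4.05, 5.58 and 3.31 in S7HP+Snail (5.97 ± 0.87, SE; limma, Benjamini-Hochberg adjusted p = 0.00442). Ido1, which breaks down tryptophan, was at 4.57, 0 and 0 in LHP, at 6.73, 7.43 and 9.58 in S7HP and at 2.35, 0 and 5.09 in S7HP+Snail. Cidea, a lipid droplet protein, was at 6.88, 4.60 and 2.15 in LHP, at 10.50, 11.16 and 11.52 in S7HP and at 7.71, 1.83 and 8.89 in S7HP+Snail. In both genes the other tumors spread widely below S7HP. The calls of Ido1 (5.91 ± 1.35) and Cidea (5.72 ± 1.46), at limma adjusted p of 0.0247 and 0.0368 (Benjamini-Hochberg), were lost on leaving out LHP tumor 3, LHP tumor 6 or any 1 S7HP tumor, at up to 0.0947 and 0.115 over all alternatives. Cidea was also lost in the 1-group fit and without the trend and robust variances. Ppp2r2c, a regulatory subunit of a major serine/threonine phosphatase, was at 2.35, 0 and 2.69 in LHP, at 10.06, 5.53 and 6.15 in S7HP and at 2.81, 3.10 and 1.96 in S7HP+Snail, a difference of 5.09 ± 1.05. It reached 4 only in S7HP, and tumor 9 stood well above the other 2.

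**Figure D3:**
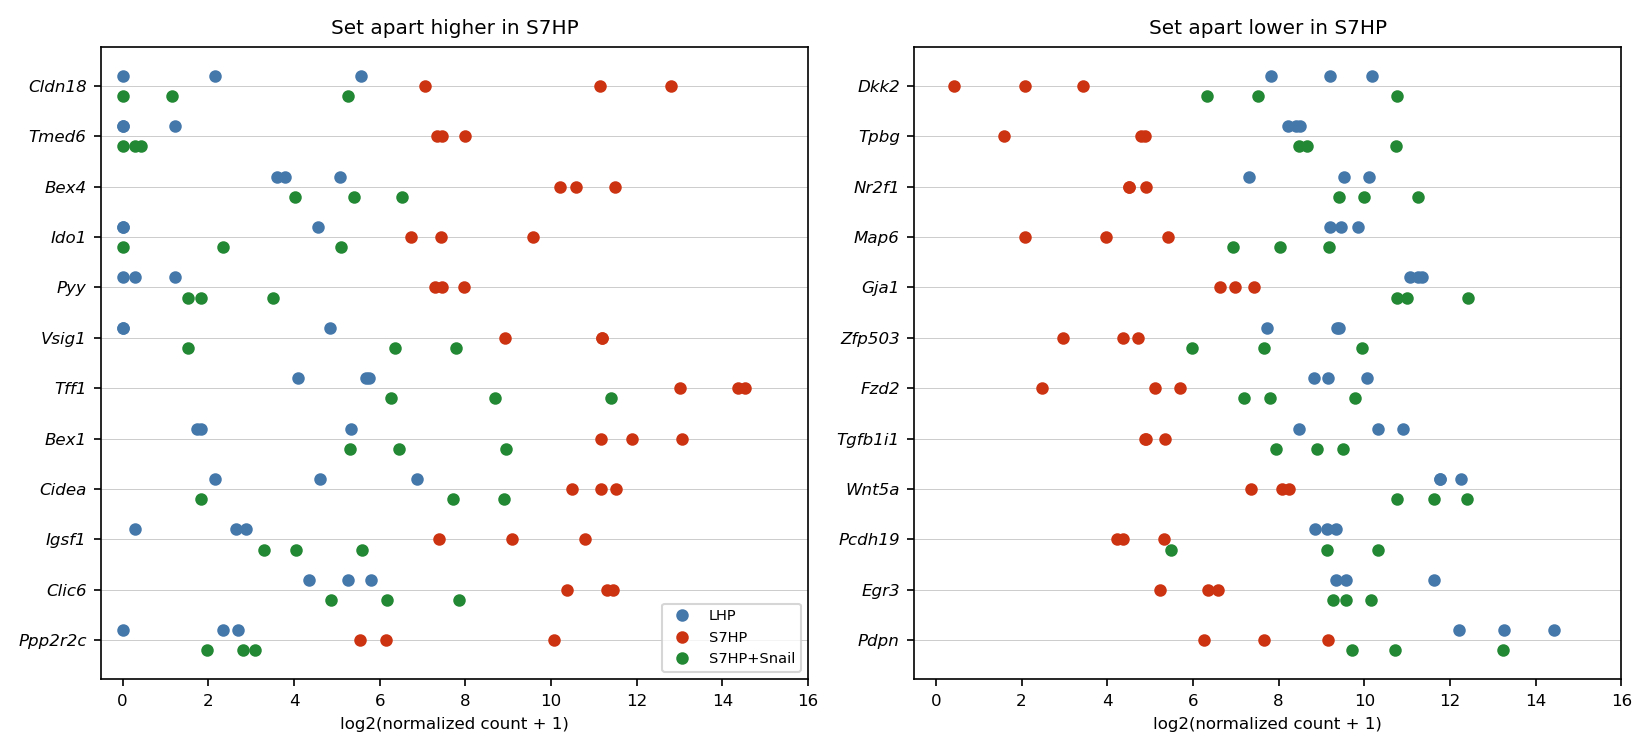
Log2 values (x axis, log2 of the normalized count plus 1) of 12 set-apart genes on each side (rows), with 1 point per tumor coloured by group. They have the widest gaps among genes with a mean of at least 7 on the higher side, passing over predicted genes. In every row the 3 S7HP points lie beyond the other 6, to the right in the left panel and to the left in the right panel, with the closest approach in Pcdh19.

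On the lower side, of 18 kept members of the Wnt list, 4 were called lower, 0 higher, and all 4 were set apart, with a median difference of -1.48. Dkk2, which encodes a secreted Wnt modulator and is not on that list (chromosome 3, 132085292 to 132180304, plus strand), was at 10.18, 7.83 and 9.21 in LHP, at 3.43, 2.08 and 0.42 in S7HP and at 7.53, 10.76 and 6.34 in S7HP+Snail. All 3 S7HP tumors were far below the others, with a difference of -6.67 ± 0.99 (SE). Dkk2 reached 4 only in the other 6 tumors, and its difference is a description. The noncanonical ligand gene Wnt5a was at 11.76, 11.76 and 12.25 in LHP, at 7.36, 8.08 and 8.24 in S7HP and at 10.76, 12.40 and 11.62 in S7HP+Snail, a difference of -3.86 ± 0.35 (limma, Benjamini-Hochberg adjusted p = 0.000843). LHP and S7HP+Snail overlapped for Wnt5a and for the receptor gene Fzd2, which was at 8.83, 9.16 and 10.07 in LHP, at 2.47, 5.11 and 5.70 in S7HP and at 7.20, 9.78 and 7.80 in S7HP+Snail (-4.38 ± 0.76; limma, Benjamini-Hochberg adjusted p = 0.00874). The other members called were the ligand gene Wnt7b (-3.96 ± 0.73) and Sp5, a target of β-catenin, which was at 4.78, 5.18 and 4.89 in LHP, at 0, 2.08 and 0 in S7HP and at 4.51, 9.86 and 7.91 in S7HP+Snail. Sp5 reached 4 only in the other 6 tumors, and Fzd2 passed the filter only with them. The place of Sp5 and Fzd2 in the list counts is therefore no support. Without S7HP tumor 9 Wnt7b was at a limma adjusted p of 0.0577 (Benjamini-Hochberg), and the list count was then 2.

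The connexin gene Gja1, for a gap junction protein of many cell types (chromosome 10, 56377330 to 56402513, plus strand), was at 11.06, 11.34 and 11.25 in LHP, at 6.98, 6.63 and 7.43 in S7HP and at 10.76, 11.00 and 12.42 in S7HP+Snail. The 6 other tumors shared 1 range and S7HP stood below it, with a difference of -4.29 ± 0.35 (SE) (limma, Benjamini-Hochberg adjusted p = 0.000545). Nr2f1, an orphan nuclear receptor, was at 9.53, 10.12 and 7.31 in LHP, at 4.91, 4.50 and 4.50 in S7HP and at 10.00, 9.41 and 11.25 in S7HP+Snail (-4.97 ± 0.60; limma, Benjamini-Hochberg adjusted p = 0.00215). Egr3, an immediate early transcription factor, was at 9.34, 11.62 and 9.57 in LHP, at 6.59, 5.24 and 6.36 in S7HP and at 9.57, 9.26 and 10.16 in S7HP+Snail (-3.86 ± 0.52; limma, Benjamini-Hochberg adjusted p = 0.00326). In each of these 3 genes the LHP and S7HP+Snail ranges overlapped. Tpbg, a trophoblast glycoprotein also found on carcinomas, was at 8.41, 8.51 and 8.22 in LHP, at 1.58, 4.89 and 4.78 in S7HP and at 8.66, 10.73 and 8.48 in S7HP+Snail (-5.09 ± 0.76; limma, Benjamini-Hochberg adjusted p = 0.00482). Map6, a microtubule-stabilizing protein, was at 9.19, 9.86 and 9.46 in LHP, at 3.97, 2.08 and 5.43 in S7HP and at 6.94, 9.17 and 8.04 in S7HP+Snail (-4.95 ± 0.69; limma, Benjamini-Hochberg adjusted p = 0.00377), with S7HP below both other groups.

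Tgfb1i1, a focal adhesion protein induced by TGF-β, was at 8.47, 10.90 and 10.31 in LHP, at 4.91, 4.89 and 5.36 in S7HP and at 9.50, 7.95 and 8.89 in S7HP+Snail (-4.28 ± 0.52, SE; limma, Benjamini-Hochberg adjusted p = 0.00217). The S7HP values were close together and below all others. Podoplanin, Pdpn, a membrane mucin of lymphatic and invading cells, was at 12.22, 14.43 and 13.26 in LHP, at 7.67, 6.26 and 9.15 in S7HP and at 13.24, 10.72 and 9.72 in S7HP+Snail. The zinc finger gene Zfp503 was at 7.74, 9.37 and 9.41 in LHP, at 4.37, 2.98 and 4.71 in S7HP and at 5.99, 9.95 and 7.67 in S7HP+Snail. Protocadherin 19, Pcdh19, was at 9.14, 8.85 and 9.35 in LHP, at 4.37, 4.23 and 5.32 in S7HP and at 10.31, 5.49 and 9.13 in S7HP+Snail, with tumor 14 nearly at the level of S7HP. These 3 calls depended on single S7HP tumors. Pdpn (-4.57 ± 0.84) and Pcdh19 (-4.07 ± 0.86) were lost without tumor 9 or 11, at limma adjusted p up to 0.0543 and 0.0787, and Zfp503 (-4.33 ± 0.80) without tumor 11, at 0.0565 (Benjamini-Hochberg).

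**Figure D4:**
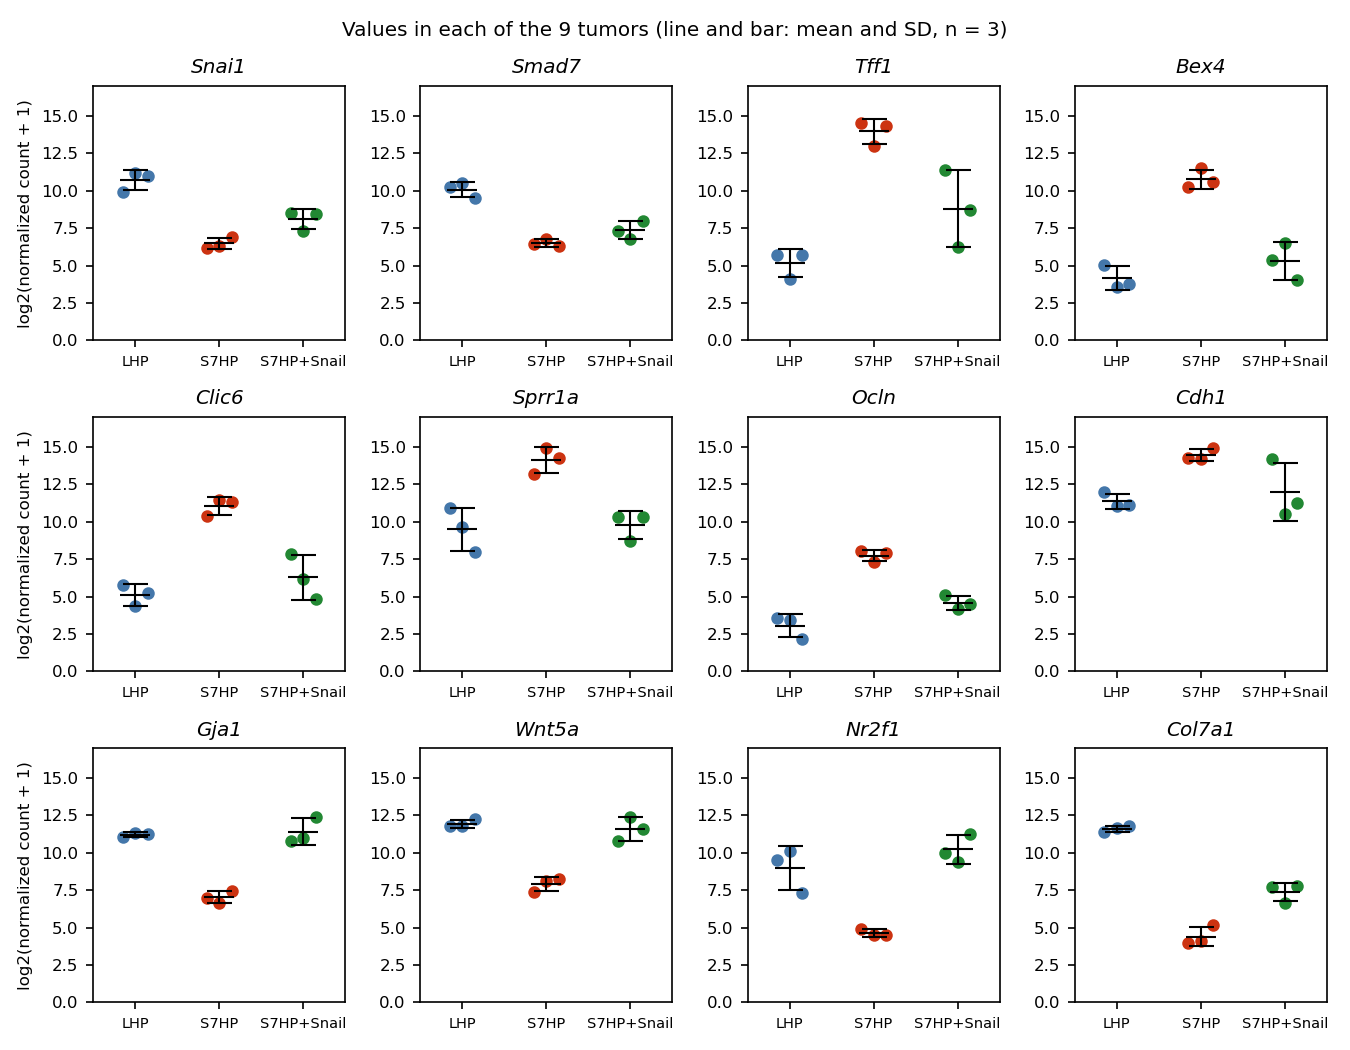
Log2 values (y axis, log2 of the normalized count plus 1) of 12 genes in each tumor by group, with a line at the mean and bars of 1 SD (n = 3 per group). S7HP tumors are lowest for Snai1, Gja1, Wnt5a, Nr2f1 and Col7a1 and highest for Tff1, Bex4, Clic6, Sprr1a and Ocln, while for Cdh1 and Smad7 an S7HP+Snail tumor reaches or nearly reaches the S7HP range.

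Of 28 kept collagen and matrix genes, 19 were called lower in S7HP, 0 higher, and 9 were set apart, with a median difference of -1.66 against 0.02 over all kept genes. Col7a1, the collagen of anchoring fibrils that tie epithelium to stroma, was at 11.37, 11.64 and 11.77 in LHP, at 3.97, 4.08 and 5.14 in S7HP and at 7.72, 6.66 and 7.77 in S7HP+Snail. The 3 groups did not overlap, and the difference was -5.09 ± 0.35 (SE) (limma, Benjamini-Hochberg adjusted p = 0.000207). The laminin chain gene Lamb1 (-2.91 ± 0.31) and the fibrillar collagen gene Col5a1 (-2.71 ± 0.34) were also set apart, at limma adjusted p of 0.00141 and 0.00241 (Benjamini-Hochberg). The type I collagen gene Col1a1 (-1.90) was called without being set apart. Tenascin C, Tnc, a glycoprotein of remodelling stroma named after its value was seen, was at 11.47, 12.62 and 10.90 in LHP, at 7.56, 9.08 and 8.11 in S7HP and at 11.79, 9.68 and 13.07 in S7HP+Snail (-3.34 ± 0.68), and its call was lost without S7HP tumor 9 or 12, at up to 0.0805 (limma, Benjamini-Hochberg adjusted p). The list count of 19 was between 9, without S7HP tumor 11, and 20 when 1 tumor was left out. It was 6 with the other 6 tumors as 1 group, where Col5a1 and Col1a1 were among those not called.

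Stellate cells and fibroblasts make matrix in liver. Of their 17 kept markers, limma called 2 lower, Acta2 (-1.92) and Pdgfrb (-1.62), and 0 higher, against 5.14% of all genes called lower, and 0 were set apart. At an unadjusted p under 0.05 there were 4 lower and 1 higher, and 15 of the 17 differences were negative. Over all 14215 genes, 2003 were lower and 2050 higher at that unadjusted threshold. Their summed level was 13.89 to 14.7 in LHP, 12.47 to 13.51 in S7HP and 13.33 to 13.91 in S7HP+Snail, with none of the markers at 0 throughout a group, so S7HP overlapped S7HP+Snail. The part of these cells in the matrix result was not tested. In bulk tumors fewer cells of a type and less RNA per cell cannot be told apart. The summed level of the matrix list itself was 17.1 to 17.42 in LHP, 14.43 to 15.5 in S7HP and 15.8 to 16.61 in S7HP+Snail, with no overlap. The calls of Acta2 and Pdgfrb were both lost on leaving out LHP tumor 3, LHP tumor 6 or any 1 S7HP tumor, at limma adjusted p up to 0.169 and 0.197 over all alternatives (Benjamini-Hochberg), and the count was 0 under each of these 5 omissions and in the 1-group fit.

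Of 19 kept mesenchymal and EMT genes, 7 were called lower and 0 higher, and 4 were set apart, with a median difference of -1.81. Snai1, which belongs to the list, is among both the 7 and the 4. The grouping was made with its levels known, so its place in these counts is no support. Zeb2, a repressor of E-cadherin, was set apart at -1.81 ± 0.32 (SE) (limma, Benjamini-Hochberg adjusted p = 0.00848), and so was Tcf4, an E-protein transcription factor, at -2.32 ± 0.38 (limma, Benjamini-Hochberg adjusted p = 0.00709). Mmp9, a gelatinase, was at -2.90 ± 0.52 (limma, Benjamini-Hochberg adjusted p = 0.00972) and was lost without S7HP tumor 11, at 0.0514. The homeobox factor Prrx1 (-3.04) was called but overlapped, and it was lost in the 1-group fit at 0.0668 (limma, Benjamini-Hochberg adjusted p). Twist1 and Fn1, the last members called, were named after their values were seen, at -4.12 ± 1.07 and -1.31 ± 0.36. Both calls were lost without any 1 LHP tumor, among others, at limma adjusted p up to 0.147 and 0.137 (Benjamini-Hochberg). Not every mesenchymal gene was called, as vimentin, Vim, N-cadherin, Cdh2, and the Snail relative Snai2 were at -0.95 ± 0.33, 0.19 ± 0.30 and 0.51 ± 0.58 without a call. These 3 genes were also named after their values were seen. The list count was 3 in the 1-group fit and 4 without S7HP tumor 11.

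TGF-β and Smad target genes were lower in part. Of 25 kept targets, 10 were called lower and 0 higher, and 3 were set apart, with a median difference of -1.15. Among the 10 was Smad7, the gene of the S7HP construct. Acta2, Tagln and Tgfb1i1, also among them, are counted on other lists too. The matrix adhesion protein gene Tgfbi was at 9.55, 10.03 and 9.90 in LHP, at 8.40, 7.36 and 8.44 in S7HP and at 10.58, 10.78 and 10.56 in S7HP+Snail. S7HP was lowest and S7HP+Snail above LHP, with a difference of -2.16 ± 0.26 (SE) (limma, Benjamini-Hochberg adjusted p = 0.00215). Thrombospondin 1, Thbs1, an activator of latent TGF-β named after its value was seen, was set apart at -2.23 ± 0.40 (limma, Benjamini-Hochberg adjusted p = 0.00971), as was Tgfb1i1. The Smad corepressor Skil (-1.65) and the TGF-β feedback gene Pmepa1 (-3.74) were called without being set apart, and both were lost in the 1-group fit, at limma adjusted p of 0.0964 and 0.105 (Benjamini-Hochberg). The list count was 6 without S7HP tumor 9 and 3 in the 1-group fit. Of 20 kept ligands and receptors, 4 were called lower and 0 higher, and the count was 0 without S7HP tumor 9. Bmp2, a bone morphogenetic protein, was set apart at -2.50 but lost when any of LHP tumors 2 and 3 and S7HP tumors 9 and 11 was left out, at up to 0.104, and Tgfb3 (-1.59), also set apart, was lost in 10 of 16 alternatives, among them the omission of any 1 LHP or S7HP tumor, at up to 0.148 (limma, Benjamini-Hochberg adjusted p).

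Urokinase, Plau, which activates plasminogen at the cell surface, was at 11.52, 12.34 and 11.51 in LHP, at 6.69, 6.34 and 7.31 in S7HP and at 9.93, 8.82 and 12.07 in S7HP+Snail. The S7HP tumors were the 3 lowest, at a difference of -4.25 ± 0.60 (SE) (limma, Benjamini-Hochberg adjusted p = 0.00379). In the list of 20 kept proteases and plasminogen genes, 5 were called lower and 1 higher, and of these 3 lower genes and the 1 higher gene were set apart. The higher gene was Plat, tissue plasminogen activator, named after its value was seen (1.45 ± 0.38), with S7HP tumor 11 at 11.66 just above S7HP+Snail tumor 14 at 11.62, and it was lost in 9 of 16 alternatives, among them the omission of any 1 LHP tumor, S7HP tumor 9, S7HP tumor 12 or S7HP+Snail tumor 13, at up to 0.133 (limma, Benjamini-Hochberg adjusted p). The list count of lower genes was 1 without S7HP tumor 11. Of 25 kept actin and contractile genes, 7 were called lower, 0 higher and 2 were set apart, at a median difference of -0.55, and the count was 1 without LHP tumor 6 and in the 1-group fit. Myl9, a regulatory myosin light chain, was one of the 2 set apart (-1.89) and lost its call when LHP tumor 6, S7HP tumor 11 or S7HP tumor 12 was left out, at limma adjusted p up to 0.0781 (Benjamini-Hochberg).

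Of 16 kept IGF and insulin signalling genes, 2 were called higher, 2 lower and 12 were not called, with a median difference of 0.15, against 5.35% and 5.14% over all genes. The 2 called lower, Igf1r and Igfbp5, were set apart. The receptor gene Igf1r was at 9.38, 9.67 and 9.06 in LHP, at 5.73, 3.74 and 6.20 in S7HP and at 8.85, 7.55 and 8.0 in S7HP+Snail (-3.53 ± 0.52, SE; limma, Benjamini-Hochberg adjusted p = 0.00456). Igfbp5, a binding protein that holds IGFs in the matrix, was at 8.27, 7.54 and 7.86 in LHP, at 6.93, 4.50 and 6.46 in S7HP and at 10.50, 10.30 and 10.69 in S7HP+Snail. For Igfbp5 S7HP+Snail was highest and S7HP lowest (-3.23 ± 0.47; limma, Benjamini-Hochberg adjusted p = 0.00439), and the call was lost in the 1-group fit at 0.0655. The ligand gene Igf2, named after its value was seen, was not called, at 15.76, 10.79 and 12.28 in S7HP against 7.32, 8.01 and 5.94 in LHP and 15.99, 15.71 and 14.70 in S7HP+Snail. Without S7HP tumor 9, and in the 1-group fit, neither of the genes called higher, H19 and Igfbp1, kept its call.

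Growth factor genes of the EGF family showed 1 set-apart member. Transforming growth factor α, Tgfa, an EGFR ligand, was at 4.64, 5.09 and 3.10 in LHP, at 7.24, 6.75 and 7.60 in S7HP and at 2.35, 3.94 and 4.39 in S7HP+Snail, with S7HP above the other 6 (3.28 ± 0.61, SE; limma, Benjamini-Hochberg adjusted p = 0.0112). Its call was just lost without S7HP tumor 9, at 0.0503. Of 19 kept members of that list, 1 was called higher and 1 lower, the ERK pathway inhibitor gene Spred1 (not called without S7HP tumor 11), which is close to the 5.35% and 5.14% found over all genes. Of 12 kept Notch pathway genes, 2 were called lower, Jag1 and Lfng, the latter a glycosyltransferase that modifies Notch, and 0 were higher. Lfng was set apart and lost its call in 8 of 16 alternatives, at limma adjusted p up to 0.14 (Benjamini-Hochberg), among them the omission of 1 of the LHP tumors 3 and 6, the S7HP tumors 9 and 11 and the S7HP+Snail tumors 13 and 14.

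Of 25 kept hepatocyte genes, 7 were called higher, 0 lower and 18 were not called, with a median difference of 1.17. The 4 set apart included, besides Hnf4a, Ambp (1.79 ± 0.23, SE), which encodes the plasma protease inhibitor bikunin, and transferrin, Trf (1.70 ± 0.30), the last named after its value was seen. Their limma adjusted p were 0.00258 for Ambp and 0.00874 for Trf (Benjamini-Hochberg), and Ambp was lost in the 1-group fit at 0.0625. Albumin, Alb, also named after its value was seen, was not called, at 1.48 ± 0.45 (limma, Benjamini-Hochberg adjusted p = 0.0667). The summed level of the list was 16.83 to 17.52 in LHP, 18.75 to 19.76 in S7HP and 17.95 to 18.56 in S7HP+Snail, without overlap. The count was 2 in the 1-group fit and between 5, without LHP tumor 2, and 8 when 1 tumor was left out. Alpha-fetoprotein, Afp, of fetal liver, was at 7.61, 7.22 and 7.81 in LHP, at 16.32, 14.14 and 14.65 in S7HP and at 12.39, 15.41 and 11.00 in S7HP+Snail. It was called (4.80 ± 0.83; limma, Benjamini-Hochberg adjusted p = 0.00873) but overlapped through S7HP+Snail tumor 14, and it was lost without S7HP tumor 9 or in the 1-group fit, at up to 0.14. Of 14 kept fetal genes, 3 were called higher, 0 lower and 1 was set apart, the imprinted gene Peg3 (2.55 ± 0.56), which lost its call without any 1 S7HP tumor, at up to 0.0882 (limma, Benjamini-Hochberg adjusted p). Without S7HP tumor 9 the fetal count was 0.

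Of 18 kept glutathione and NRF2 genes, 7 were called higher, 0 lower and 3 were set apart, all 3 glutathione transferases of the alpha class. Gsta1 was at 5.52, 5.90 and 6.95 in LHP, at 12.56, 13.35 and 12.46 in S7HP and at 10.82, 9.70 and 9.78 in S7HP+Snail, a difference of 4.68 ± 0.38 (SE) (limma, Benjamini-Hochberg adjusted p = 0.000545). The 3 groups formed separate steps. Gsta4 (4.12 ± 0.47) and Gsta2 (3.03 ± 0.48) had the same order of group means, and each of the 3 was lost in the 1-group fit, at limma adjusted p from 0.0525 to 0.0977 (Benjamini-Hochberg). The alpha-class copies are similar in sequence and may share reads, so Gsta1 and Gsta2 are uncertain as separate measurements. In the 1-group fit limma called 0 of the 18 genes, with 8 higher and 1 lower at an unadjusted p under 0.05, and without S7HP tumor 11 the count was 3. Of 19 kept genes of fatty acid synthesis and lipid storage, 4 were called higher, 0 lower and 3 were set apart, with a median difference of 0.09. Of the 19 differences 11 were positive and 8 negative, and the summed level of the list was 15.05 to 15.25 in LHP, 14.72 to 15.07 in S7HP and 14.55 to 14.69 in S7HP+Snail, so S7HP was not above LHP. Cidec, a protein that enlarges lipid droplets, was at 1.22, 2.26 and 1.22 in LHP, at 8.08, 8.13 and 8.34 in S7HP and at 6.89, 6.06 and 5.86 in S7HP+Snail (4.27 ± 0.41; limma, Benjamini-Hochberg adjusted p = 0.00117, and 0.108 in the 1-group fit). Dgat2, which makes triglyceride, was at 2.51 ± 0.26 (limma, Benjamini-Hochberg adjusted p = 0.00131) and kept its call under each of 16 alternatives. Of 20 kept genes of fatty acid oxidation, 3 were called higher, 0 lower and 3 were set apart, led by Acadm, the medium-chain acyl-CoA dehydrogenase (1.47 ± 0.21; limma, Benjamini-Hochberg adjusted p = 0.00409). The counts of both lists were 1 in the 1-group fit, and without LHP tumor 3 they were 2 for synthesis and storage and 1 for oxidation.

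Several programs showed no or few calls, where 5.35% of all genes were called higher and 5.14% lower. A single call among 23 genes is close to these shares. At an unadjusted p under 0.05, 2050 of all 14215 genes were higher and 2003 lower. Of 25 kept cell cycle genes, limma called 0, with 1 higher and 1 lower at an unadjusted p under 0.05, and the median difference was 0.06. Of 23 kept glycolysis and hypoxia genes limma called 0, with 4 higher and 0 lower at an unadjusted p under 0.05. Of their differences 20 were positive, with a median of 0.7. Of 23 kept interferon response genes, 1 was called higher, Usp18, which was clear of LHP only and was lost without S7HP tumor 11 or 12. At an unadjusted p under 0.05, 4 interferon genes were higher and 0 lower in limma, and 19 of the 23 differences were positive (median 0.42). The share was larger for MHC class I presentation, where 3 of 13 kept genes were called higher and 0 lower. Of these 13 differences 12 were positive, with a median of 0.93, and the count was 0 in the 1-group fit. The nonclassical class I gene H2-Q4 (2.47 ± 0.41, SE; limma, Benjamini-Hochberg adjusted p = 0.00709) and Nlrc5 (1.80), the transactivator of class I genes, were set apart. H2-Q4 has close copies among the class I genes, and its call was lost in the 1-group fit at 0.0578. Nlrc5 was lost without any 1 S7HP tumor, at up to 0.107 (limma, Benjamini-Hochberg adjusted p), and the list count was 1 without S7HP tumor 11. Of 23 kept cholesterol synthesis genes, 1 was called higher, Insig1, and it was lost in 8 of 16 alternatives, the omission of any 1 LHP or S7HP tumor included, at up to 0.135 (limma, Benjamini-Hochberg adjusted p). At an unadjusted p under 0.05, 7 cholesterol genes were higher and 0 lower in limma, and 18 of the 23 differences were positive (median 0.3).

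Markers of other cell types were mostly not called, where 5.35% of all genes were called higher and 5.14% lower. Of 18 kept endothelial markers, 2 were called lower, Plvap (-1.73 ± 0.26, SE), of fenestrated endothelium, which was set apart, and VE-cadherin, Cdh5, which was not. At an unadjusted p under 0.05 there were 10 lower and 0 higher, and 16 of the 18 differences were negative. Over all 14215 genes, 2003 were lower and 2050 higher at that unadjusted threshold. Their summed level was 13.4 to 13.75 in LHP, 12.88 to 13.6 in S7HP and 13.51 to 14.01 in S7HP+Snail. The count was 7 with library weights, 6 without S7HP+Snail tumor 15, 4 without S7HP tumor 9 and 1 without LHP tumor 2 or 3, S7HP tumor 11 or 12 or S7HP+Snail tumor 13, in the 1-group fit and with no filter. Of the macrophage (17 kept), neutrophil (8), T and NK cell (10), B cell (3), mesothelial (7) and erythroid (7) markers limma called 0. The differences were still mostly of 1 sign in some lists. They were negative for 15 of the 17 macrophage markers (median -0.57). They were positive for 9 of the 10 T and NK cell markers (median 1.5) and 7 of the 7 erythroid markers (median 0.72). Positive differences were 5 of 8 for neutrophil, 1 of 3 for B cell and 3 of 7 for mesothelial markers. At an unadjusted p under 0.05 there were 3 lower macrophage markers, 1 higher T and NK cell marker, 1 lower mesothelial marker and 1 higher erythroid marker. The summed macrophage level was 13.97 to 14.61 in LHP, 13.23 to 13.84 in S7HP and 13.65 to 14.69 in S7HP+Snail, and the summed T and NK cell level was 5.85 to 9.77, 8.73 to 9.64 and 7.51 to 9.9 in the same order. The B cell factor Pax5 was at 0 in each of the 9 tumors, the cytotoxic gene Prf1 in each S7HP and S7HP+Snail tumor, and the neutrophil gene Elane in each S7HP tumor. Of 14 kept biliary and progenitor markers, 3 were called higher and set apart, Onecut1 (3.04 ± 0.49), a hepatobiliary transcription factor, Anxa4 (2.35 ± 0.38) and the tetraspanin gene Tspan8 (3.16 ± 0.51), and 0 were lower. Tspan8 was lost with the other 6 as 1 group (limma, Benjamini-Hochberg adjusted p = 0.155). The summed biliary level was 16.66 to 17.53 in LHP, 16.61 to 17.63 in S7HP and 15.28 to 18.53 in S7HP+Snail, so the groups overlapped. The part of these cell types in the results above was not tested.

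**Figure D5:**
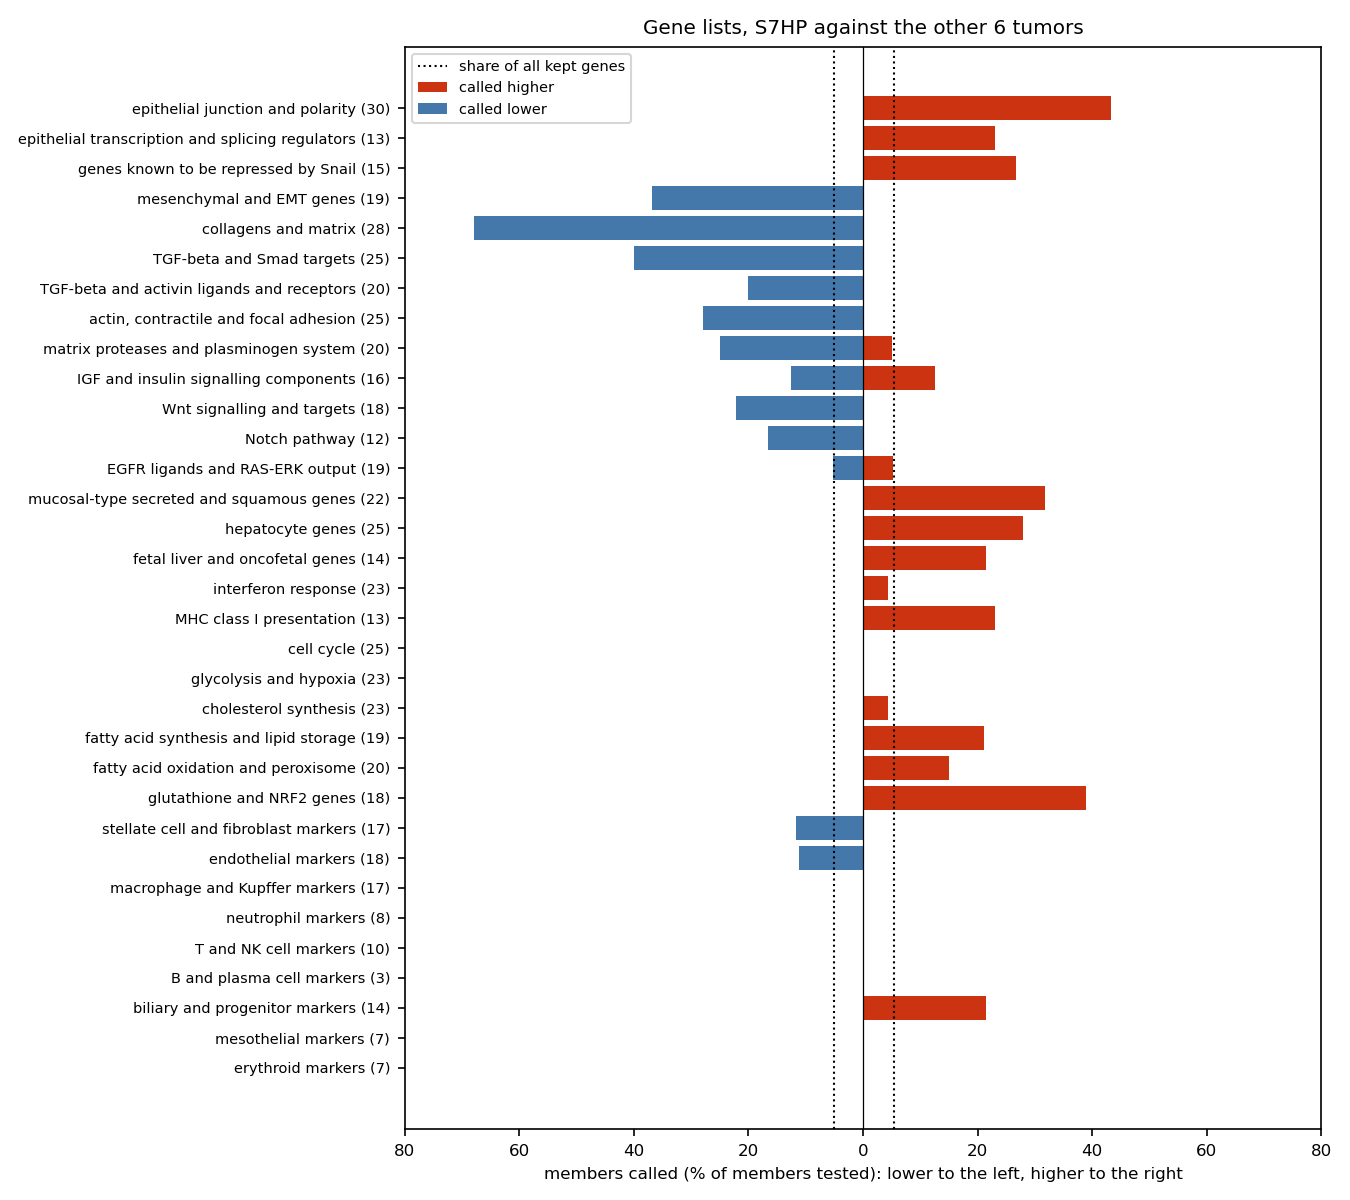
Share of kept members called higher (bars to the right) and lower (bars to the left) in S7HP against the other 6 tumors for 33 gene lists, in percent, with the number of kept members in brackets. Dotted lines mark the shares over all 14215 genes, 5.35% higher and 5.14% lower; the bar for collagens and matrix on the lower side and the bar for epithelial junction genes on the higher side reach well beyond them.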

How the data were processed

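RNA from 9 liver tumors was profiled. Per the labels' protocols it was extracted with Trizol, and 500 ng of total RNA went into each QuantSeq library. The tools Bowtie2 and edgeR and the mm10 build are named per the submitters' processing notes, without roles or versions. How reads were counted, on which strand and over which annotation is not given in the sources used here. The authors deposited log2 values. Unlogged, they share a top value and nearly 1 total across the 9 libraries, the mark of quantile normalization of read counts plus 1, so library totals are not preserved. Among the highest genes the same values recur, as 17.6, 17.91 and 18.29 do for Fn1 and for Trf. The differences of Fn1 and Trf thus follow rank within a library and do not measure the fold.

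The design had a fallback for such values, limma in place of a count test. Genes at 4 or more in at least 3 libraries were fitted with 1 mean per group in limma 3.58.1 (R 4.3.3), leaving 6 residual degrees of freedom, with eBayes using trend and robust, two-sided. Differences are on the log2(normalized count + 1) scale, which understates changes of low genes, and errors after ± are limma's SE. The members compared and the 33 gene lists were chosen with earlier results of these data known. Of 618 list entries 615 matched a symbol and 586 were kept, and some genes are on several lists. A few genes named by rule are not reported here.

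Genes named by rule were Snai1, Smad7, the 12 set-apart genes in each direction with the widest gap among those with a mean of at least 7 on the higher side, passing over predicted genes, and, per list, the called members with the smallest adjusted p, 4 at most. Coordinates are those of GENCODE release M21 on GRCm38, and 95.5% of symbols matched 1 GENCODE gene. Promoters are from RefSeq (GRCm38.p6). The procedure was tested on simulated data. Alternatives changed the model, variance, weights, filter, pseudocount, scaling and gap, and left out each library; their effect on list counts was examined after the main counts were seen. Python 3.11.15 with matplotlib 3.10.9 drew the figures.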

Additional observations from a re-analysis of the deposited data

How the results depend on the processing

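The model of the other 6 tumors and single libraries moved the counts most. With the other 6 as 1 group the calls were 257 higher and 264 lower, and the set-apart genes 230 and 215. The called genes overlapping S7HP+Snail only were then 11 (in place of 424) and those overlapping LHP only 0 (in place of 29). Smad7 (-2.2) was not called in that fit. Snai1 (-2.92), given above with no test, would not have been called either. That fit puts the difference between LHP and S7HP+Snail into the spread, and all 521 of its calls and 445 of its set-apart genes were among the main 1492 and 725. Library weights moved the genes overlapping LHP only to 57, and a gap of 2 left 150 and 140 genes set apart. When 1 tumor was left out, calls ranged from 283 (without S7HP tumor 9) to 872 higher and from 251 (without S7HP tumor 11) to 912 lower (without S7HP+Snail tumor 15 for both highest values). Set-apart genes ranged from 212 to 458 higher and from 188 to 478 lower, genes overlapping S7HP+Snail only from 53 to 322, and genes overlapping LHP only from 0 to 71. Calls also moved by over 1.5 times without LHP tumor 3 (498 and 447), LHP tumor 6 (488 and 433) and S7HP tumor 12 (410 and 479), and they were 295 higher without S7HP tumor 11 and 301 lower without S7HP tumor 9. Set-apart higher genes were 231 without S7HP tumor 11. The 4 counts of called and set-apart genes stayed within 1.5 times under the other variance model, weights, filters, pseudocount and centring. Of 96 named genes, 35 were called under every alternative, 61 lost the call in at least 1, and 0 reversed. Of the 24 named by rule for their gaps, 16 were called under every alternative. Both the 35 and the 16 include Pyy, Tmed6 and Dkk2, which passed the filter through 1 side only and are given above with no test. Both also include Igsf1, Tpbg, Map6 and Fzd2, and the 35 include Col7a1 and Igf1r, all of which passed only with the side where they are high. Their part in these counts is no support. With 3 tumors a group and quantile-normalized values, low genes in S7HP tumor 11, the shallowest library, are the least precise. No paired analysis was possible because the groups share no tumor numbers.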

Other observations

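Some genes for hormones and secretory granule proteins met the set-apart conditions on the higher side and were picked out after their values were seen. Ghrelin, Ghrl, a stomach hormone, was at 0, 0 and 3.10 in LHP, at 5.46, 9.02 and 5.86 in the S7HP tumors 9, 11 and 12 and at 1.15, 3.86 and 0 in S7HP+Snail. Chromogranin B, Chgb, a protein of secretory granules, was listed at 0 in the 3 LHP tumors and was at 4.28, 9.70 and 5.90 in S7HP and at 3.38, 0.29 and 1.35 in S7HP+Snail. Vgf, a granule peptide precursor, was at 7.29, 6.61 and 6.79 in S7HP, against at most 3.97 in the others. Galanin, Gal, was at 5.13, 6.40 and 6.09 in S7HP, against at most 3.98 in LHP and 0.29 in S7HP+Snail. These 4 genes reached the filter value of 4 only in S7HP, so no test of them is given. Somatostatin, Sst, was at 5.21, 7.07 and 4.87 in S7HP and at 0 in the other tumors except S7HP+Snail tumor 15, at 4.67, just below the lowest S7HP tumor. Its call was lost on leaving out LHP tumor 3, LHP tumor 6 or any 1 S7HP tumor, or with the other 6 as 1 group, at a limma adjusted p up to 0.127 (Benjamini-Hochberg). In Ghrl, Chgb, Gal and Sst tumor 11 was the highest of the 3 S7HP tumors.

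Some genes outside the lists separated the groups sharply and were picked out for it. Fabp5, a fatty acid binding protein, was at 10.40, 10.29 and 10.35 in LHP, at 14.00, 13.76 and 13.60 in S7HP and at 10.97, 10.33 and 10.60 in S7HP+Snail (3.30 ± 0.19, SE; limma, Benjamini-Hochberg adjusted p = 5.65e-05). The chemokine gene Ccl20 was at 3.38, 2.26 and 4.98 in LHP, at 10.38, 9.31 and 10.33 in S7HP and at 6.95, 4.35 and 5.96 in S7HP+Snail (5.36 ± 0.69; limma, Benjamini-Hochberg adjusted p = 0.00261). On the lower side, Wls, which carries Wnt proteins to the cell surface, was at 13.48, 13.25 and 13.52 in LHP, at 9.70, 10.98 and 10.86 in S7HP and at 13.44, 14.18 and 13.19 in S7HP+Snail (-3.0 ± 0.32; limma, Benjamini-Hochberg adjusted p = 0.00138). The retinol transporter gene Stra6 was listed at 0 in all 3 S7HP tumors, against 7.74, 7.75 and 6.84 in LHP and 4.49, 9.66 and 6.57 in S7HP+Snail. Stra6 reached 4 only in the other 6 tumors and is given with no test. The calls of Fabp5, Ccl20 and Wls held under each of 16 alternatives.

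Some set-apart genes were neighbours. Of 725 set-apart genes, those within 100000 bases of each other formed 87 pairs, 75 of them with the same direction. Pairs were not counted over all kept genes, so whether these numbers are unusual was not tested. Tff3, Tff2 and Tff1 lie together on chromosome 17 (31125306 to 31165277, GRCm38), and Bex2, Bex4, Tceal5 and Bex1 on the X chromosome (136066564 to 136215513), all higher in S7HP. Tff2, the member with the least firm call (6.56 ± 1.70; limma, Benjamini-Hochberg adjusted p = 0.0388), was lost in 9 of 16 alternatives, among them the omission of any 1 LHP or S7HP tumor. Ocln and Marveld2 are neighbours on chromosome 13, 43239 bases apart. Overlapping or copied genes can share reads, and 7 set-apart genes had values within 0.05 of another set-apart gene in each of the 9 tumors, among them the protocadherin genes Pcdhga5, Pcdhga8 and Pcdhgb7, which share 3′ exons.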
